A study of Homo sapiens with 6 samples.

Results

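EGR1, EGR2, EGR3, NR4A1, NR4A2, NR4A3, IER2, IER3 and IER5 are 9 genes of the immediate early response, grouped by family. They were chosen with earlier results of these data known and are compared here between solvent and drug. Of the 9, 8 were among the 12010 genes of the deposited tables, and EGR3 was not analysed here. The data are 6 RNA sequencing libraries of 92.1, an established cell line from a human uveal melanoma, a tumour of the eye's pigment cells. DMSO, the solvent, was given to 3 samples and 0.1 µM LBH589 to the other 3, both for 24 h in medium with serum, and no other agent or allele is named for either group. LBH589, also called panobinostat, is an inhibitor of histone deacetylases. The unit is FPKM, a fragment count divided by transcript length and by the mapped total of the library, summed over the listed transcripts of a gene.

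Immediate early genes are switched on within minutes of a signal, from transcription factors already present in the cell, and most of their messengers are short-lived. EGR proteins are zinc finger activators that bind GC-rich DNA and are held in check by the corepressors NAB1 and NAB2. NR4A proteins are orphan nuclear receptors that bind DNA without a known hormone ligand, and IER proteins are small factors of growth and stress responses. In melanocytes, the NR4A genes are known targets of the cyclic AMP pathway that also drives pigmentation. Growth factor signals through the kinases ERK and RSK reach EGR1 by way of serum response factor, which binds the CArG box.

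The libraries differed as wholes. Summed FPKM was 409742 ± 12731 in DMSO and 361610 ± 6082 in LBH589 (SD, n = 3 each, exact two-sided permutation p = 0.1, the smallest that 3 against 3 samples allow). Mitochondrially encoded genes held between 35.8 and 45.7% of FPKM in DMSO and between 35.1 and 37.3% in LBH589. In DMSO the 8 listed melanocyte markers summed to between 2531 and 2672 FPKM, which goes with a pigment cell but cannot identify the line. Most of that sum was TYRP1 (mean 1796 FPKM), while DCT and S100B were at means of 3.32 and 1.24 FPKM. In LBH589 the sum of the 8 was between 721 and 776 FPKM, and 6 of the 8 fell, beside 21.6% of all tested genes. PMEL and S100B overlapped between groups, though the mean of S100B was higher in LBH589 (1.24 FPKM in DMSO and 2.14 FPKM in LBH589). Neither passed. Each listed transcript reaches a mean of 0.5 FPKM in 1 group or the other. DCT, at a mean of 0.258 FPKM in LBH589, was thus listed only through DMSO and had to differ. Of 9 markers of leukocytes, endothelium, fibroblasts and epithelium, 4 were listed, with sums between 17.5 and 26.9 FPKM in DMSO and between 20.4 and 26.7 FPKM in LBH589. Of these 4, COL1A1 rose from 1.13 ± 0.723 to 3.32 ± 0.705 FPKM and EPCAM from 0.313 ± 0.132 to 0.835 ± 0.245 FPKM. With its low DMSO mean, EPCAM was listed only through LBH589 and had to differ. CD68 and KRT18 did not pass. PTPRC, CD3E, PECAM1, COL1A2 and KRT5 were not among the listed genes. Their part in the results on the early genes was not tested, and in bulk RNA fewer cells with a transcript and less of it per cell cannot be told apart. The labels name no separate cultures, so each p-value reflects spread among samples that may be technical repeats.

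Starts of 3 members are shown because they set side by side a gene that rose, a gene that fell and a gene whose groups overlapped. Each line gives the 250 bases before the RefSeq start on build GRCh38.p14, plus strand. They are chr12:52037465-52037714 for NR4A1, chr9:99821635-99821884 for NR4A3 and chr5:138465229-138465478 for EGR1. Capitals mark CArG boxes and the core of the cyclic AMP response element, TGACG, on either strand (CGTCA when read on the other). The NR4A1 window ends at the start of transcript NR4A1-206, 1 of several starts of that gene, and no window covered the downstream starts.
NR4A1: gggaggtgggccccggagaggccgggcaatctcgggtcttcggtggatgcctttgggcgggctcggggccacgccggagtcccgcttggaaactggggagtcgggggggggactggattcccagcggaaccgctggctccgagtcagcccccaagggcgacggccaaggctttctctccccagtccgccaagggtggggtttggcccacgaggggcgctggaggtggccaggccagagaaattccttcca
NR4A3: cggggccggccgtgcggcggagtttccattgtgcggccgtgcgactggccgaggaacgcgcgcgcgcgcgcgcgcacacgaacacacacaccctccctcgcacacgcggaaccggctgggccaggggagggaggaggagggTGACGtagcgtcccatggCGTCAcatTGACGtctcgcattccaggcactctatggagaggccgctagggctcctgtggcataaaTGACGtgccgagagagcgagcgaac
EGR1: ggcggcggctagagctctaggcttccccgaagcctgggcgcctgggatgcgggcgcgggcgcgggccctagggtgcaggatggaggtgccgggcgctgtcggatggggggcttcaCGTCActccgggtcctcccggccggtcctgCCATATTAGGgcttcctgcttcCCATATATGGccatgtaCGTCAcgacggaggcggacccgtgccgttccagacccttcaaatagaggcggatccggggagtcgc

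The windows differed in these letters. EGR1 held 2 CArG boxes, at positions -105 to -96 and -83 to -74 from the RefSeq start, and 2 copies of TGACG. NR4A3 held 4 copies of TGACG and no CArG box, and the NR4A1 window held none of either. Among 35116 RefSeq promoter windows of the same length, 1.16% had a CArG box and 21.2% had TGACG. The full element TGACGTCA (1.65% of windows), the EGR site GCGGGGGCG (4.72%) and the NR4A site AAAGGTCA (1.05%) were in none of the windows of the members. Windows were at hand for EGR1, EGR2, NR4A1, NR4A3, IER2 and IER5. EGR2 had 1 CArG box and 2 copies of TGACG in the window at the start of its listed transcript, IER2 had 1 copy of TGACG in a window 1564 bases from its listed transcript, and IER5 had neither motif. All motifs were searched on both strands, TGACG is also part of TGACGTCA, and a match describes letters only.

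After 24 h of deacetylase inhibition, the question was which of these early genes differ from solvent. NR4A1, NR4A2, IER2 and IER3 rose, NR4A3 fell, and EGR1 and IER5 did not pass. EGR2 was below the level tested. Among the 7 tested members, NR4A1 had the largest fold, 8.37 in mean FPKM (4.73 without LBH589 replicate 3), and NR4A3, the most abundant member in DMSO, went the opposite way to its paralogs. These calls come from limma on log2(FPKM + 1) over all 11520 genes whose mean reached 0.5 FPKM, at a Benjamini-Hochberg adjusted p below 0.05. Thus 4 of 7 tested members rose, beside 27.2% of all tested genes, and 1 of 7 fell, beside 21.6%. The median log2 fold change of the 7 was 0.83, against 0.08 for all tested genes. All 3 LBH589 values lay above all 3 DMSO values in 4 of the 7 tested members (33.0% of all tested genes) and below them in 1 (26.5%). With 7 members, these shares describe the set and show nothing particular to it. Fold changes on the log2(FPKM + 1) scale understate the change of genes at low FPKM.

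**Figure D1:**
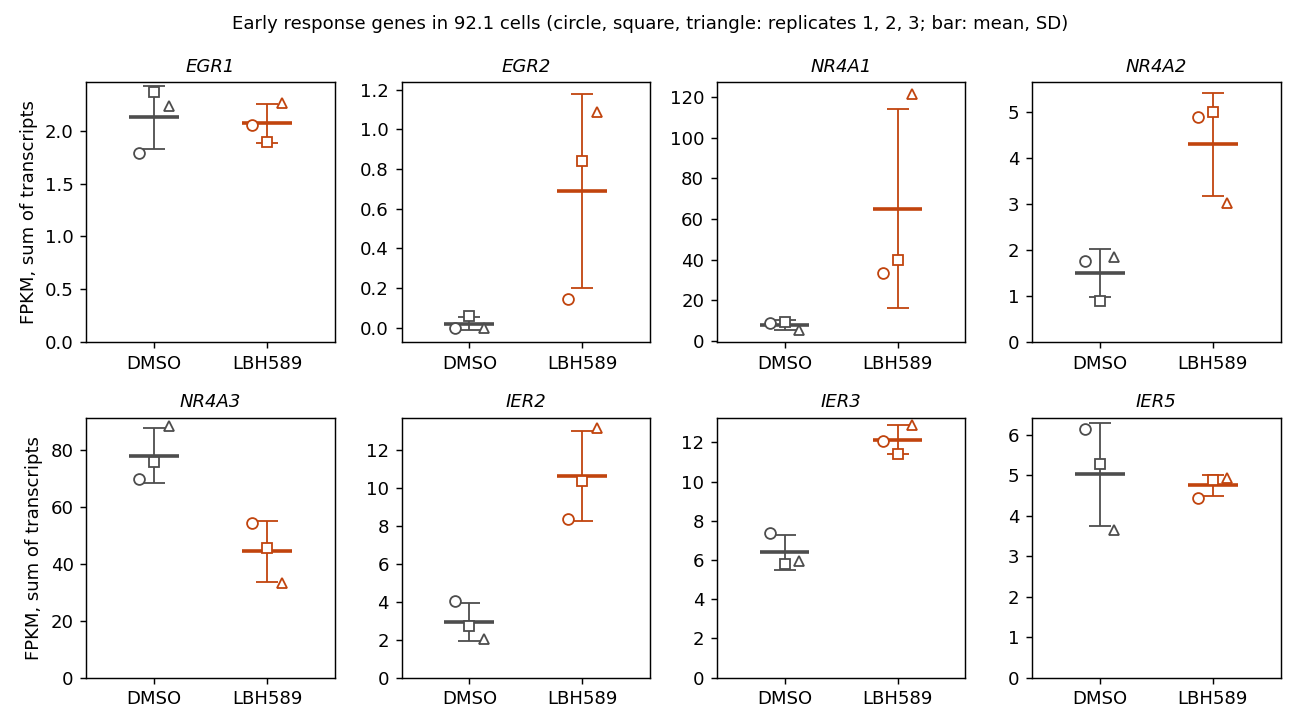
FPKM of the 8 listed members (y axis, linear, own scale per panel) in DMSO and LBH589, each point 1 library, the thick bar the mean and the whiskers the SD of 3 libraries. NR4A1, NR4A2, IER2 and IER3 lie higher in every LBH589 library than in any DMSO library, NR4A3 lies lower, and EGR1 and IER5 overlap.

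NR4A1, also called Nur77, is a nuclear receptor with roles in apoptosis and metabolism. It was at 8.67, 9.50 and 5.13 FPKM under DMSO (replicates 1, 2 and 3 in order, here and in what follows), against 33.6, 40.0 and 122 FPKM under LBH589. Every LBH589 library was above every DMSO library, and LBH589 replicate 3 stood far above the other two. Its log2 fold change was 2.71 (SE 0.51, limma adjusted p = 0.00601). Without LBH589 replicate 3 it was 2.14 (adjusted p = 0.00405), so the rise did not rest on that library, though its size did in part.

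NR4A2, also called Nurr1, is best known for its role in dopamine neurons. It was at 1.77, 0.902 and 1.86 FPKM under DMSO, against 4.89, 5.01 and 3.02 FPKM under LBH589. The groups did not overlap, but here LBH589 replicate 3 was the lowest of its group. The log2 fold change was 1.08 (SE 0.24, limma adjusted p = 0.0120). NR4A2-201, the only listed transcript, has the same values but did not pass over all transcripts (limma adjusted p = 0.0549).

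NR4A3, also called NOR1, is the receptor that translocations fuse in extraskeletal myxoid chondrosarcoma. It was at 69.8, 75.6 and 88.6 FPKM in DMSO and fell to 54.4, 45.6 and 33.1 FPKM in LBH589. The log2 fold change was -0.82 (SE 0.20, limma adjusted p = 0.0159), a mean 1.76 times lower, with no overlap between groups. LBH589 replicate 3, the library highest in NR4A1, was the lowest in NR4A3.

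The make-up of the NR4A family changed more than its total. Summed FPKM of the 3 genes was 80.3, 86.0 and 95.5 in DMSO and 92.9, 90.6 and 158 in LBH589, and only LBH589 replicate 3 lay clearly apart. NR4A3 supplied 87.0, 87.9 and 92.7% of that sum in DMSO and 58.6, 50.3 and 21.0% in LBH589. NR4A1 went from 10.8, 11.0 and 5.37% to 36.2, 44.1 and 77.1%. NR4A2 stayed a minor part, between 1.05 and 5.53% in all 6 libraries. FPKM is per length, so these levels can be set side by side. The shares are descriptions with no test, since they follow from the calls above.

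**Figure D2:**
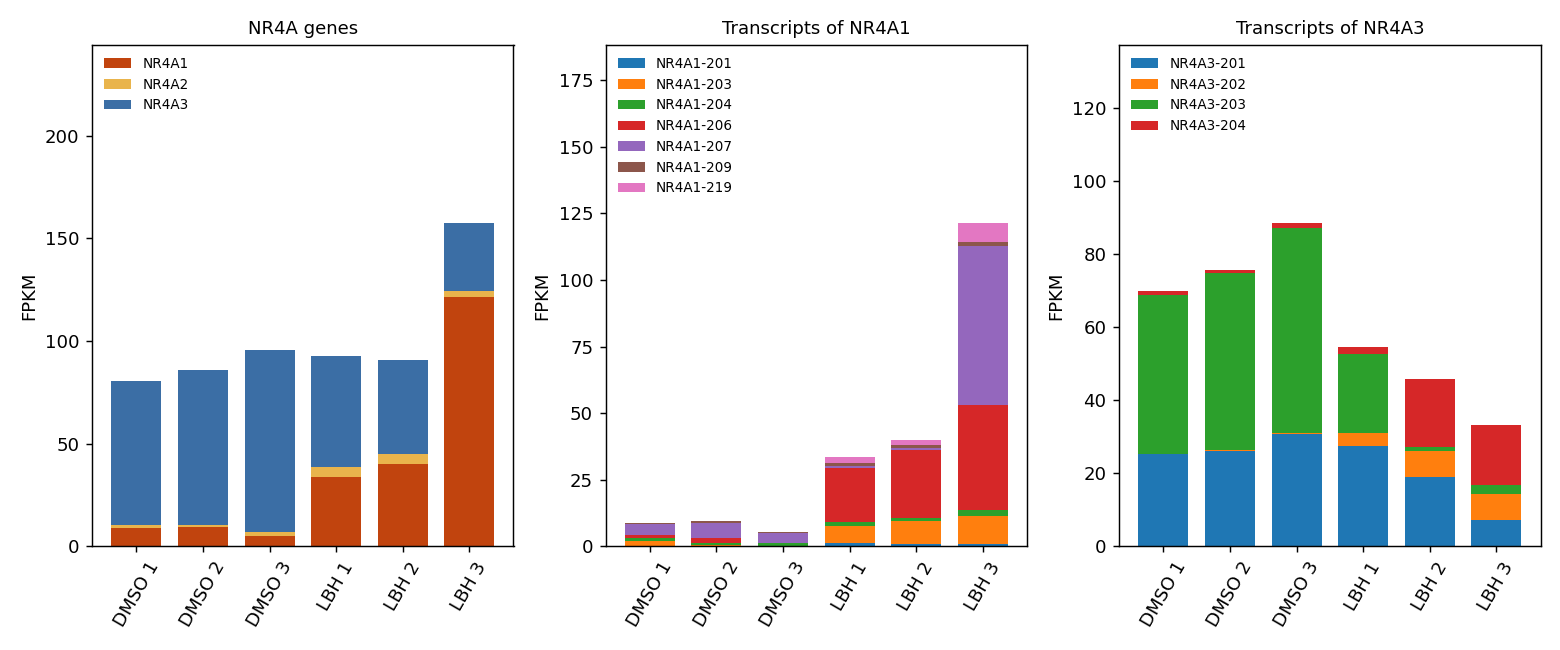
Stacked FPKM (y axis, linear from 0) in each of the 6 libraries for the 3 NR4A genes, the 7 listed transcripts of NR4A1 and the 4 listed transcripts of NR4A3. NR4A3 makes up most of the left bars in DMSO, and the transcript NR4A1-207 fills 49.3% of the NR4A1 bar of LBH589 replicate 3.

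Transcripts of NR4A1 did not move as a block. NR4A1-206 (ENST00000545748.5_1), which starts 13687 bases upstream of NR4A1-204 in the GENCODE annotation, was at 0.949, 1.89 and 0.187 FPKM in DMSO. It rose to 20.6, 25.3 and 39.2 FPKM in LBH589 (log2 fold change 3.91, limma adjusted p = 0.00366 over 27042 transcripts). It was the main NR4A1 transcript of LBH589 replicates 1 and 2, with 61.3 and 63.4% of the gene's FPKM. NR4A1-207 (ENST00000546842.5_1), annotated with an incomplete 3′ end, was at 4.28, 5.78 and 3.53 FPKM under DMSO, against 0.626, 0.763 and 59.9 FPKM under LBH589. The excess of NR4A1 in LBH589 replicate 3 therefore lay largely in this 1 transcript, which did not pass (adjusted p = 0.990). Without NR4A1-207 the gene's sum was 4.40, 3.72 and 1.61 FPKM in DMSO and 33.0, 39.2 and 61.6 FPKM in LBH589, and its log2 fold change was 3.44 (adjusted p = 5.23e-04).

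Grouped by annotated start, both parts of NR4A1 were higher in LBH589. NR4A1-206 and NR4A1-207, with the upstream starts, summed to 5.22, 7.67 and 3.71 FPKM in DMSO and 21.2, 26.1 and 99.1 FPKM in LBH589. The 5 transcripts with downstream starts summed to 3.45, 1.83 and 1.42 FPKM in DMSO and 12.4, 13.9 and 22.5 FPKM in LBH589. Of these 5, NR4A1-201, NR4A1-209 and NR4A1-219 had DMSO means under 0.5 FPKM and were listed only through LBH589. Their LBH589 means were 0.896, 1.20 and 3.95 FPKM, and that part of the downstream difference had to appear. The grouping by start carries no test. The upstream share ranged from 60.2 to 80.7% in DMSO and from 63.1 to 81.5% in LBH589, so the ranges overlapped. Of the downstream transcripts, NR4A1-203 rose from 2.08, 0.579 and 0.0718 FPKM to 6.48, 8.51 and 10.7 FPKM (adjusted p = 0.0191). NR4A1-219 was at 0.0675, 0.215 and 0 FPKM under DMSO, against 2.48, 2.17 and 7.19 FPKM under LBH589, and was listed only through the latter.

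NR4A3 changed in its transcripts as well as in its sum. NR4A3-203 (ENST00000395097.6_1) led in DMSO with 43.5, 48.3 and 56.3 FPKM and was at 21.7, 1.10 and 2.42 FPKM in LBH589. It did not pass over all transcripts (log2 fold change -3.20, SE 0.90, limma adjusted p = 0.0713), and LBH589 replicate 1 lay well above the other two. NR4A3-202, with a shorter coding part (1329 against 1878 bases in NR4A3-203), was at 0.0597, 0.233 and 0.251 FPKM under DMSO and at 3.32, 7.13 and 7.02 FPKM under LBH589. Its DMSO mean is under 0.5 FPKM, so it was listed only through LBH589, and its test is not used. NR4A3-204 was at 1.19, 0.978 and 1.40 FPKM under DMSO, against 1.79, 18.5 and 16.5 FPKM under LBH589 and did not pass (adjusted p = 0.137). NR4A3-201, which starts 4872 bases downstream of NR4A3-203, was between 25.1 and 30.6 FPKM in DMSO and between 7.20 and 27.5 FPKM in LBH589 (adjusted p = 0.352).

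The lower NR4A3 sum lay mainly in NR4A3-203, whose mean was 49.4 FPKM in DMSO and 8.42 FPKM in LBH589. NR4A3-201 was at means of 27.3 and 17.9 FPKM, and NR4A3-202 and NR4A3-204 were higher in LBH589. By annotated 3′ UTR, NR4A3-201 and NR4A3-204 share an annotated 3′ UTR of 3024 bases and together were at 26.3, 27.0 and 32.0 FPKM in DMSO and 29.3, 37.4 and 23.7 FPKM in LBH589, with overlap. NR4A3-202 and NR4A3-203, with 527 and 1184 bases, together were at 43.6, 48.6 and 56.5 FPKM in DMSO and 25.1, 8.23 and 9.44 FPKM in LBH589. The long form was thus 36.5 ± 0.980% of NR4A3 FPKM in DMSO and 69.1 ± 14.2% in LBH589 (SD, n = 3 each). This grouping was made after the values were seen and carries no test, and how the authors divided fragments between transcripts is not stated in the sources used here.

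Over all members, 18 transcripts were listed and 16 tested. By limma, 6 rose, beside 8.62% of all tested transcripts, and 0 fell, beside 7.33%. Of these 6, IER3-202, NR4A1-219 and NR4A3-202 had DMSO means under 0.5 FPKM and were listed only through LBH589, so they had to differ. The other 3 were IER2-203, NR4A1-203 and NR4A1-206, and the count supports nothing further. At an unadjusted p below 0.05, 1 member transcript was lower. The gene NR4A3 fell, then, although none of its transcripts passed downward over all transcripts. When each gene was read from its most abundant transcript, NR4A3-203 did pass (limma adjusted p = 0.0450, 11457 genes tested). Its call thus depends on the set of features tested.

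IER2 and IER3 both rose, and the third tested IER gene did not pass. IER2, a nuclear protein induced by growth factors, was at 4.03, 2.74 and 2.02 FPKM under DMSO, against 8.37, 10.4 and 13.1 FPKM under LBH589. The groups stood well apart, with a log2 fold change of 1.58 (SE 0.24, limma adjusted p = 0.00274). Its listed transcript is IER2-203 (ENST00000588173.1_1), which has 1 exon.

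IER3, also called IEX-1, is a stress-induced regulator of cell survival. It was at 7.40, 5.79 and 5.97 FPKM under DMSO, against 12.1, 11.4 and 12.9 FPKM under LBH589. The replicates of each group lay close together, and the log2 fold change was 0.83 (SE 0.13, limma adjusted p = 0.00246). IER3-202 (ENST00000376377.2_1), the form annotated with a single exon, was at 0.00435, 0.0112 and 0.00630 FPKM under DMSO, against 3.20, 0.886 and 2.12 FPKM under LBH589, the group through which alone it was listed. It held 26.5, 7.76 and 16.5% of IER3 FPKM in LBH589. IER3-201, the form with 2 exons, was between 5.78 and 7.40 FPKM in DMSO and between 8.88 and 10.8 FPKM in LBH589, and missed the threshold (adjusted p = 0.0677).

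IER5, a regulator of the heat shock factor HSF1, overlapped between groups. It was at 6.14, 5.30 and 3.65 FPKM under DMSO, against 4.46, 4.88 and 4.93 FPKM under LBH589, inside the DMSO range. The log2 fold change was -0.05 (95% interval -0.49 to 0.40, limma adjusted p = 0.860), and its sign turned with library sums made equal (0.10) and without DMSO replicate 1 (0.09). The sum of the 3 IER genes was 17.6, 13.8 and 11.6 FPKM in DMSO and 24.9, 26.7 and 31.0 FPKM in LBH589.

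EGR1, the best known of the EGR factors, was low in both groups. It was at 1.79, 2.36 and 2.23 FPKM under DMSO, against 2.06, 1.89 and 2.26 FPKM under LBH589, so the groups overlapped throughout. The log2 fold change was -0.03 (95% interval -0.35 to 0.30, limma adjusted p = 0.895), which leaves room for shifts of that size on the log2(FPKM + 1) scale in either direction. The sign turned with library sums made equal (0.10), with sums without mitochondrial genes made equal (0.0021) and without DMSO replicate 2 (0.03) or LBH589 replicate 2 (0.02).

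EGR2, a factor of Schwann cell myelination, was listed at 0, 0.0606 and 0 FPKM under DMSO, against 0.145, 0.840 and 1.09 FPKM under LBH589. Every LBH589 value was above every DMSO value, but the mean over the 6 libraries was under 0.5 FPKM. Without that limit its log2 fold change was 0.68 (limma adjusted p = 0.0513 over 12010 genes), which did not pass. Each listed transcript reaches a mean of 0.5 FPKM in 1 group or the other, so EGR2 was listed only through its LBH589 values.

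Libraries of a group did not rank the members alike. LBH589 replicate 3 had the highest value of its group in 6 of 8 members, all but NR4A2 and NR4A3, in both of which it was the lowest. No such share over all genes is given here, so the count describes these members and nothing particular to them. In DMSO the highest value came from replicate 1 in 3 members, all of them IER genes, from replicate 2 in 3 and from replicate 3 in 2. Across the 8 genes the order of DMSO means was NR4A3, NR4A1, IER3, IER5, IER2, EGR1, NR4A2 and EGR2. Neighbours from NR4A1 to IER5 overlapped, as did IER5 with IER2, IER2 with EGR1, and EGR1 with NR4A2. In LBH589 the order was NR4A1, NR4A3, IER3, IER2, IER5, NR4A2, EGR1 and EGR2, where NR4A1 overlapped NR4A3, IER3 overlapped IER2, and IER5 overlapped NR4A2.

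Members differed in copies of ATTTA, the core of AU-rich elements that mark messengers for decay. It was counted on the sense strand of annotated 3′ UTRs, and the messenger sequences were not otherwise compared. It occurred 10 times in IER5-201 and NR4A3-201, 6 times in IER3-201, 4 times in NR4A2-201 and NR4A3-203 and 3 times in NR4A1-206. EGR2-201 had 2 copies, EGR1-201 had 1 and IER2-203 had 0. At least 3 copies were present in 43.3% of 11095 tested genes with a complete 3′ UTR, judged by the most abundant transcript. Counts were not scaled to UTR length, which was 3013 bases in IER5-201, 3024 in NR4A3-201 and 737 in IER3-201. The median length over those 11095 genes was 1089 bases. Of the members that rose, IER2 had 0 copies, NR4A1 had 3, NR4A2 had 4 and IER3 had 6. NR4A3, which fell, had 4 in NR4A3-203 and 10 in NR4A3-201, and of those that did not pass EGR1 had 1 and IER5 had 10. In the annotation, IER3 overlaps IER3-AS1, IER2 overlaps AC011446.2 and NR4A1 overlaps AC025259.3 on the opposite strand. The counting is not stated to use strand, so reads of these pairs cannot be told apart.

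By likeness of pattern over the 6 libraries, IER3 came closest to MAP2K1, a kinase that activates ERK (Pearson r = 0.999), CYSTM1 and GPR108. MAP2K1 went from a mean of 6.70 to 15.3 FPKM. Likeness was taken among genes whose mean reached 5 FPKM, and 653 of 6865 had an r above 0.95 with IER3, a pattern that mostly repeats the difference between groups. NR4A3 came closest to ZBTB38 (0.986), a zinc finger protein, ZNF207 and GTF2E2, with 66 genes above 0.95. EGR1 came closest to RBM41 (0.994), MPP6 and FXR1, with 7 genes above 0.95. These r values cover 6 libraries in 2 groups, share library depth and carry no p.

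Other early response genes mostly rose. Of 35 tested in a list of 41, 25 rose, 2 fell and 8 did not pass, beside 27.2% rises and 21.6% falls among all tested genes. This list, like the others here, was chosen with earlier results of these data known. Its counts therefore describe the list and carry no test of it. The median log2 fold change was 1.23. Among the rises, KLF2, NFKBIZ and CSRNP1 had DMSO means of 0.354, 0.243 and 0.270 FPKM. They were listed only through LBH589 and had to differ. Likewise DUSP2, among the falls, was listed only through DMSO. JUN, a subunit of the factor AP-1, was at 2.51, 3.21 and 3.24 FPKM in DMSO and rose to 49.6, 50.5 and 55.9 FPKM. BTG1, an inhibitor of proliferation, rose from 7.10 ± 0.510 to 38.9 ± 2.52 FPKM (SD, n = 3 each). CYR61 and CTGF, matricellular proteins, rose too, CYR61 from 4.90 ± 0.480 to 172 ± 12.4 FPKM and CTGF from 0.855 ± 0.0995 to 135 ± 7.75 FPKM. The 2 that fell, named after their values were seen, were TRIB1, a pseudokinase (57.5 ± 4.45 to 21.9 ± 0.625 FPKM), and DUSP2, a MAP kinase phosphatase (1.20 ± 0.246 to 0.275 ± 0.129 FPKM). NR4A1, NR4A2, IER2 and IER3 thus lay on the side of most of the list, and NR4A3 did not.

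**Figure D3:**
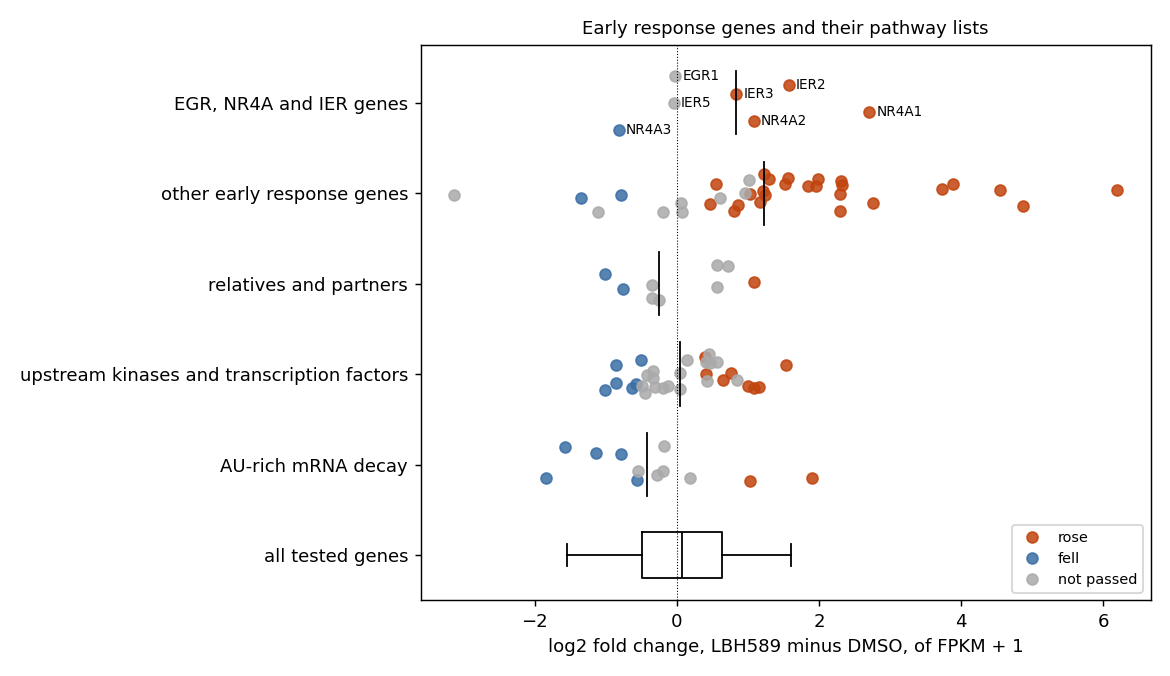
Log2 fold change of FPKM + 1, LBH589 minus DMSO (x axis), of each tested member and each tested gene of 4 pathway lists; point colour gives the limma call, black lines the medians. The box shows the quartiles of all 11520 tested genes with whiskers at the 5th and 95th percentiles; NR4A1 lies furthest to the right of the members, at 2.71, and NR4A3 furthest to the left, at -0.82.

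Among relatives and partners of the members, 9 of 11 were tested, of which 1 rose and 2 fell, counts too small to set apart from the 27.2% and 21.6% of all tested genes (median log2 fold change -0.26). NAB1, a corepressor of EGR proteins, rose from 11.2, 10.4 and 12.3 FPKM to 18.9, 30.0 and 27.8 FPKM (log2 fold change 1.09, limma adjusted p = 0.00414). NAB2, the other corepressor, stood at 4.60, 2.98 and 4.46 FPKM under DMSO, against 8.06, 9.38 and 4.70 FPKM under LBH589, and missed the threshold (adjusted p = 0.0704). It passed when LBH589 replicate 3 was left out (0.0197), with library sums made equal (0.0389) and with sums without mitochondrial genes made equal (0.0493). PPP2R2A, a regulatory subunit of the phosphatase PP2A, fell from 63.7 ± 9.18 to 36.8 ± 0.237 FPKM. WT1, a zinc finger factor related to EGR1, was at 2.50, 0.720 and 3.09 FPKM and fell to 0.638, 0.278 and 0.434 FPKM (adjusted p = 0.0492). That call ended without DMSO replicate 1 or 3 (adjusted p = 0.130 and 0.121) or LBH589 replicate 1, 2 or 3 (0.0821, 0.132 and 0.116), and with library sums made equal (0.0619). Read from its most abundant transcript, WT1 differed by -0.05 on the log2 scale (adjusted p = 0.941). With a mean of 0.450 FPKM in LBH589, under 0.5 FPKM, WT1 was also listed only through DMSO.

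All 31 kinases and transcription factors upstream of the early genes were tested, and 8 rose and 6 fell (median log2 fold change 0.04). These shares are near the 27.2% and 21.6% of all tested genes and are no result about the list. MRTFA, a coactivator of serum response factor, rose from 2.81 ± 0.274 to 9.97 ± 0.326 FPKM, and PRKACB, a catalytic subunit of protein kinase A, rose from 8.68 ± 0.539 to 18.6 ± 2.75 FPKM. RPS6KA3, a kinase of the RSK family, fell from 96.7 ± 13.2 to 47.0 ± 1.28 FPKM, and MEF2C, a transcription factor, fell from 32.7 ± 2.85 to 17.5 ± 1.04 FPKM. Serum response factor itself, SRF, which was picked after its value was seen, averaged 5.23 ± 0.862 FPKM under DMSO and 3.93 ± 0.415 FPKM under LBH589, which missed the threshold (adjusted p = 0.122). Read from the most abundant transcript alone, the calls of NAB1, MRTFA and PRKACB ended (adjusted p = 0.297, 0.459 and 0.179). The upstream rises numbered 5 without DMSO replicate 2 or without LBH589 replicate 1 or 2, and the falls 3 without DMSO replicate 3 or LBH589 replicate 3.

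Of 12 genes that govern AU-rich messengers, 2 rose and 5 fell, beside 27.2% and 21.6% of all tested genes (median log2 fold change -0.42). ZFP36L2 and ZFP36L1, which promote decay of such messengers, fell, ZFP36L2 from 30.7 ± 1.84 to 7.87 ± 0.199 FPKM and ZFP36L1 from 67.6 ± 4.65 to 22.7 ± 6.83 FPKM. KHSRP, another decay factor, fell from 110.9 ± 11.4 to 64.3 ± 8.53 FPKM, and TIAL1, an RNA-binding protein, fell from 46.2 ± 11.9 to 20.0 ± 1.04 FPKM. ELAVL1, which stabilises these messengers, fell from 17.2 ± 1.81 to 11.4 ± 0.723 FPKM. ZFP36, itself an early gene, rose from 2.60, 1.94 and 2.07 FPKM to 3.56, 15.3 and 21.8 FPKM (adjusted p = 0.0375), and CNOT7, a deadenylase, rose from 64.4 ± 19.9 to 130.2 ± 25.8 FPKM (0.0171). ELAVL1, ZFP36 and CNOT7 were named after their values were seen. With the most abundant transcript the calls of TIAL1 and ZFP36 ended (adjusted p = 0.128 and 0.0676). The call of ZFP36 also ended without any 1 of the libraries other than LBH589 replicate 1 (adjusted p between 0.0772 and 0.111), and that of CNOT7 without DMSO replicate 3 or LBH589 replicate 1 or 3 (0.0522, 0.0571 and 0.0593).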

How the data were processed

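The authors deposited 1 table per library with FPKM per transcript, per the file headers. The submitters' processing notes name Bowtie 0.12.2 and hg19. No quantification tool, annotation or filter is stated there or in the labels. Of 30624 transcripts, 30504 (99.61%) were named by identifier through GENCODE release 29, whose build differs, so exons, transcript ends, UTR sequence, overlaps, lengths and distances were taken from it, but no coordinates. FPKM was summed per gene. Genes reaching a mean of 0.5 FPKM were tested with limma 3.58.1 (R 4.3.3) on log2(FPKM + 1), with trend and robust moderation, and p-values were adjusted over all genes. The same test over transcripts was added after the data were seen, as were scaling without mitochondrial genes, NR4A1 without NR4A1-207 and the motif AAAGGTCA. The test was checked on simulated data. Library sums were compared with exact permutation tests (scipy 1.17.1).

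The members and lists were chosen with earlier results of these data known. Named genes were the members, up to 4 genes per list with the smallest adjusted p, and for the most abundant member of each family the 3 genes most like it. The files hold no counts, and products of FPKM and transcript length showed no dominant step in the bins searched, so absolute depth is unknown and no counting interval is given. Alternatives were no filter or one at 5 FPKM, pseudocount 0.1, other scalings, limma without trend and robust moderation, the most abundant transcript, a replicate block and leaving out each library.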

Additional observations from a re-analysis of the deposited data

How the results depend on the processing

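The 4 rises and 1 fall among the members held in direction and call under 2 pseudocounts, with no filter, with equal medians, equal sums or quantile normalization, with the most abundant transcript and without any 1 library. At a mean of at least 5 FPKM NR4A2 was not tested, which left 3 rises. The labels tie no replicate number to a shared culture or day. Deviations of same-numbered libraries from their group means correlated at -0.10, 0.02 and -0.04 across genes. Those of other pairs correlated between -0.05 and 0.08. Deviations within a group sum to 0, so these values cannot show whether anything was shared. With the replicate number as a block, the members that fell numbered 0, since NR4A3 reached an adjusted p of 0.0526 at the same fold change. Upstream rises then numbered 5 and AU-rich rises 0. At a mean of at least 5 FPKM, fewer genes were tested and all rises numbered 1844, falls among relatives 1 and falls among other early genes 1. Equal sums, which moved the median of all genes from 0.08 to 0.23, gave 2 rises and 1 fall among relatives and 3 upstream falls, and EGR1 and IER5 turned to 0.10 and 0.10. Sums without mitochondrial genes gave 2 rises among relatives, and EGR1 at 0.0021. The most abundant transcript gave 0 rises and 1 fall among relatives, 2 upstream rises and 1 AU-rich rise. Leaving out 1 library each gave between 1 and 2 rises and 1 and 2 falls among relatives, 2 and 4 falls among other early genes (4 without DMSO replicate 2), 5 and 8 upstream rises, 3 and 6 upstream falls and 0 and 1 AU-rich rises. EGR1 was at 0.029 without DMSO replicate 2 and 0.02 without LBH589 replicate 2, and IER5 at 0.088 without DMSO replicate 1 and -0.22 without DMSO replicate 3. The cause of these shifts was not tested. Depth is unknown, so it cannot be said what limits the calls of the low genes EGR1, EGR2 and NR4A2.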
